A study of Mus musculus with 6 samples.

Results

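The genes described here are the transgelins *Tagln* and *Tagln2*, the calponins *Cnn1*, *Cnn2* and *Cnn3*, and the smooth muscle contractile genes *Acta2*, *Myh11* and *Myl9*, in RNA-seq of muscle stem cells (MuSCs). The set was picked on this same comparison because *Tagln* was higher in MuSCs lacking *Sirt6*, so the values of the members are given as a description and support nothing on their own. Of the 8 genes, 7 were measured among 25166 genes, and all 7 passed the filter on low values. *Cnn1* is not analysed here. MuSCs were sorted from skeletal muscle of C57BL/6 mice by FACS, as Integrin-a7+/CD34+ cells lacking Sca1, CD45 and CD31 or by a reporter, and each library was made from RNA of 100 to 200 sorted cells. In the Sirt6mKO group, a Cre recombinase driven by the *Pax7* promoter (Pax7-ICNCre) had removed exons 4 to 6 of floxed *Sirt6*, the gene of a nuclear deacetylase acting on histone H3. This Cre is constitutive and acts throughout the skeletal muscle lineage, so *Sirt6* was already missing in the ancestors of the sorted cells. The control group is labelled as wild type, while the legends of the study describe floxed animals without Cre, and the legends give males of 12 weeks. There were 3 libraries in each group, with 1267720 to 3210358 reads assigned to genes per library as recovered from the values. The labels do not say whether each came from a separate mouse, so errors and p-values measure the spread between libraries.

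Transgelins and calponins are small actin-binding proteins that share a calponin homology domain. In smooth muscle, *Tagln* (SM22-alpha) and *Cnn1* sit on actin filaments together with smooth muscle alpha-actin (*Acta2*), while smooth muscle myosin heavy chain (*Myh11*) and its regulatory light chain (*Myl9*) form the motor that pulls on them. *Tagln2*, *Cnn2* and *Cnn3* are the relatives found in many non-muscle cells. Many of these genes carry CArG boxes, the binding sites of serum response factor (SRF), which works there with myocardin or with the actin-sensing myocardin-related transcription factors (MRTFs). In skeletal muscle tissue, *Tagln*, *Acta2* and *Myh11* are known as markers of the smooth muscle cells and pericytes of vessels, and *Tagln* and *Acta2* also as genes of contractile myofibroblasts.

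The 250 bases before the RefSeq start site are shown for 4 members, read 5′ to 3′ on the strand of the gene. Among the members with a RefSeq window, they show where the SRF motif lies near the start and where it was not matched. *Tagln* and *Myh11* had no window by symbol and were not searched, so nothing is said of their motifs. Capitals mark a CArG box, or a CArG-like box in which 1 of the 6 A or T letters in the middle is replaced by C or G. The positions, in GRCm38.p6, are chr1:172499996-172500245 on the plus strand for *Tagln2*, chr19:34255374-34255623 on the minus strand for *Acta2*, chr10:79988350-79988599 on the plus strand for *Cnn2* and chr2:156775214-156775463 on the plus strand for *Myl9*.
Tagln2: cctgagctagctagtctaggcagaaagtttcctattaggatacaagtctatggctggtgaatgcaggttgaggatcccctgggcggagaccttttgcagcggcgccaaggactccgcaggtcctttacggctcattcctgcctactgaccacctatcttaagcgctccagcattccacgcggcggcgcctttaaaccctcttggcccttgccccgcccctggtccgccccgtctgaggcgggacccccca
Acta2: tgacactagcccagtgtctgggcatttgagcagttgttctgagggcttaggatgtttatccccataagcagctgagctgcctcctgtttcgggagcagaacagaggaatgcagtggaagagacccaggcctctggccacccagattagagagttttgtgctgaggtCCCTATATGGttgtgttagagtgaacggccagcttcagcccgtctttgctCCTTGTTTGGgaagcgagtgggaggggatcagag
Cnn2: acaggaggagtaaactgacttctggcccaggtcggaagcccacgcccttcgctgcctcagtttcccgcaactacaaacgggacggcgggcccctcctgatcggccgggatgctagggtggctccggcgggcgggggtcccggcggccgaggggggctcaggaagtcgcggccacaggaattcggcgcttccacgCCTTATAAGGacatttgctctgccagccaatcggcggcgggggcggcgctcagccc
Myl9: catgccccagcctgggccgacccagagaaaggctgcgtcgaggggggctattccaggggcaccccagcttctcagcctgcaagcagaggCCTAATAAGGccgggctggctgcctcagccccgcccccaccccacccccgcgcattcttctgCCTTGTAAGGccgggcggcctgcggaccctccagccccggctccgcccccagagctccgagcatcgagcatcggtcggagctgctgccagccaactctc

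The *Cnn2* window held a CArG box 56 to 47 bases before the start, and the *Myl9* window held a CArG box 161 to 152 bases before it and a CArG-like box 99 to 90 bases before it. *Acta2* held CArG-like boxes at 84 to 75 and 34 to 25 bases before its start. In windows of 300 bases that include the 50 bases after the start, a CArG box was found in 1.63% and a CArG-like box in 8.5% of 32851 RefSeq promoters. Neither form was matched in the windows of *Tagln2*, *Cnn1* and *Cnn3*. The letters CATTCC, the core motif of the TEAD factors, were searched on both strands; they occurred 2 times before *Tagln2* and once before *Acta2*, and in 14.7% of all promoters. The letters TATAAA, also searched on both strands, were in none of the 6 windows of members and in 13.6% of all promoters. These matches describe the sequence and do not show binding.

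*Tagln* was about 3-fold higher in Sirt6mKO MuSCs, whereas *Acta2*, *Cnn3*, *Myl9* and *Myh11* had nearly the same mean in both groups. *Tagln2* was higher by less than 2-fold and *Cnn2* varied too much among the controls to separate the groups. The unit throughout is the deposited signal, which is the reads of a gene divided by a factor for the sequencing depth of its library and rounded. A gene was called when the adjusted p-value of limma was at most 0.05 and the fold change at least 2. By this rule, 1 of the 7 members was called, *Tagln*, while 2.59% of the 14227 tested genes were called in either direction and 1.57% as higher. Every Sirt6mKO library lay above every control library for 2 members, *Tagln* and *Tagln2*, and for 11.1% of all tested genes. Since *Tagln* was chosen for its difference, nothing is read from these counts. The median log2 fold change over the 7 members was 0.00, and that over all tested genes was 0.00 as well.

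**Figure D1:**
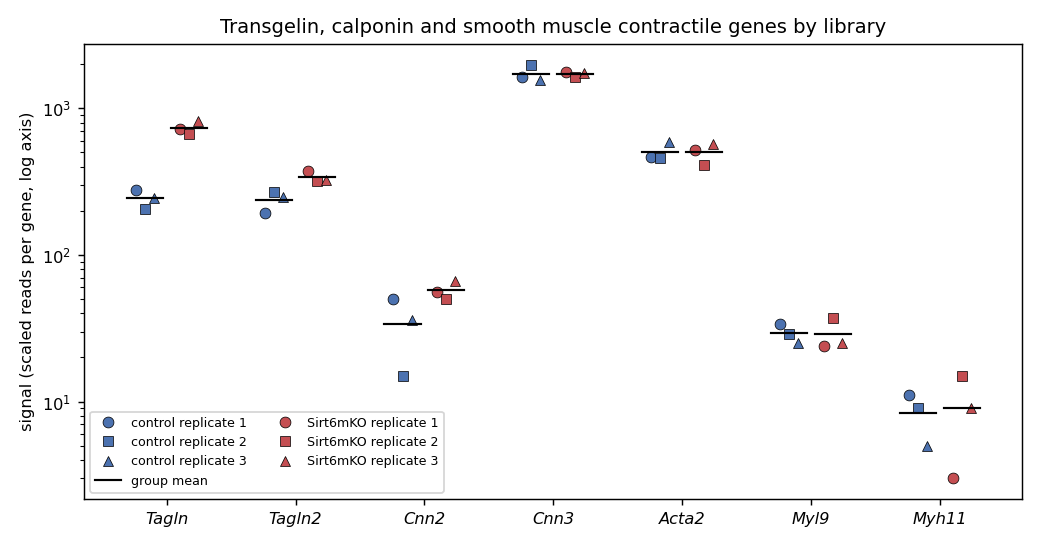
Signal of the 7 measured genes in each of the 6 libraries, on a log axis, with controls in blue, Sirt6mKO in red, symbols for the replicate number and a line at each group mean. The Sirt6mKO libraries lie between 670 and 817 for Tagln and the controls between 206 and 278, while the groups overlap for Cnn3, Acta2, Myl9 and Myh11 and touch at 50 for Cnn2.

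*Tagln* (ENSMUSG00000032085, chromosome 9, 45929619 to 45936058, minus strand of GRCm38) reached 717, 670 and 817 in replicates 1, 2 and 3 of Sirt6mKO, whereas the signal was 278, 206 and 244 in replicates 1, 2 and 3 of the controls. All Sirt6mKO libraries were thus far above all controls, and the lowest of them was above the highest control by more than the range of either group. The means were 735 ± 75.1 and 243 ± 36.0 (SD, n = 3 each), a log2 fold change of 1.60 with an SE of 0.13 and a 95% interval of 1.31 to 1.89, or 3.03-fold (2.49 to 3.70). Leaving out any 1 library moved the log2 fold change between 1.49 and 1.70. Between 136 and 898 reads lay behind each of these values. The spread between libraries, a coefficient of variation of 10.2% in Sirt6mKO and 14.8% in controls, was larger than the 3.38% and 7.14% that counting alone would give. Among the 7394 genes whose signal averaged 50 or more, *Tagln* ranked 39 by its log2 fold change.

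The exons of *Tagln* cover 1988 bases, and 1349 of them (67.9%) also lie in exons of genes on the opposite strand, 1241 in *Gm48529* and 108 in *Pcsk7*. Reads assigned to several genes had been left out by the authors, and whether the counting used the strand is not given in the sources used here. Without strand, reads of *Tagln* and of these partners could not be told apart there. *Gm48529* had a signal of 34, 27 and 30 in Sirt6mKO and of 25, 14 and 13 in controls, a log2 fold change of 0.83 that was not called. *Pcsk7* had 156, 149 and 142 against 133, 136 and 127, a log2 fold change of 0.17 and likewise not called. Both partners had a lower signal than *Tagln* in every library. How far the shared exons change the *Tagln* signal was not tested.

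*Tagln2* (ENSMUSG00000026547, chromosome 1, 172500047 to 172507380, plus strand), the transgelin of many non-muscle cells, had a signal of 375, 317 and 322 in Sirt6mKO and of 193, 268 and 247 in controls. The groups did not overlap, but the gap between the lowest Sirt6mKO library and the highest control was smaller than the range within either group. The means were 338 ± 32.1 and 236 ± 38.7 (SD, n = 3 each), with a log2 fold change of 0.53, an SE of 0.14 and a 95% interval of 0.22 to 0.83, which lies below 2-fold throughout. It moved between 0.39 without control replicate 1 and 0.62 without control replicate 2. The third member of the family, *Tagln3*, a transgelin known from neurons, had a signal of 7, 4 and 6 in Sirt6mKO and of 1, 2 and 5 in controls, too low on average to be tested. Translated from the reference transcripts, *Tagln* and *Tagln2* share 67.8% of the residues of the shorter protein, and *Tagln* and *Tagln3* share 67.3%. No stretch of 75 bases, the length searched, was shared on the same strand between the transcripts of *Tagln* or *Tagln2* and those of any other gene.

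The proportion of the 2 transgelins to each other differed between the groups without overlap. The signal of *Tagln* was 1.91, 2.11 and 2.54 times that of *Tagln2* in Sirt6mKO and 1.44, 0.769 and 0.988 times in controls. In each Sirt6mKO library *Tagln* was the higher of the pair, while in controls this held in replicate 1 only.

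*Acta2* (ENSMUSG00000035783, chromosome 19, 34241090 to 34255590, minus strand), the actin with which *Tagln* is paired in smooth muscle, had a signal of 523, 410 and 567 in Sirt6mKO and of 467, 456 and 590 in controls. The ranges overlapped almost fully. The means were 500.0 ± 81.0 and 504 ± 74.4 (SD, n = 3 each), and the log2 fold change was -0.02, with an SE of 0.14 and a 95% interval of -0.33 to 0.30. As a ratio of Sirt6mKO to control this interval runs from 0.797-fold to 1.23-fold. The signal of *Tagln* was 1.37, 1.63 and 1.44 times that of *Acta2* in Sirt6mKO and 0.595, 0.452 and 0.414 times in controls. *Tagln* therefore had the higher signal of this pair in all Sirt6mKO libraries and *Acta2* in all controls. The protein of *Acta2* shares 99.5% of its residues with that of enteric smooth muscle actin, *Actg2*, and 97.9% with that of skeletal muscle actin, *Acta1*. No same-strand stretch of 75 bases of *Acta2* was found in the transcripts of another gene.

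*Cnn3* (ENSMUSG00000053931, chromosome 3, 121426497 to 121458207, plus strand), the acidic calponin, had the highest signal of all members. It was 1779, 1627 and 1746 in Sirt6mKO and 1633, 1984 and 1556 in controls, so that the controls spanned the whole Sirt6mKO range. The means were 1717 ± 79.95 and 1724 ± 228 (SD, n = 3 each), with a log2 fold change of 0.00, an SE of 0.12 and a 95% interval of -0.25 to 0.26. Its exons share 17.7% of their bases with *Gm42928* on the opposite strand, and 4.09% of its 75-base stretches also occur in *Gm4815* or *Gm17936*, so part of its reads may have been left out in counting.

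*Cnn2* (ENSMUSG00000004665, chromosome 10, 79988584 to 79996062, plus strand), the calponin of motile cells, had a signal of 56, 50 and 66 in Sirt6mKO and of 50, 15 and 36 in controls. Control replicate 1 equalled Sirt6mKO replicate 2, and control replicate 2 was the lowest library. The means were 57.3 ± 8.08 and 33.7 ± 17.6 (SD, n = 3 each). The log2 fold change was 0.90 with an SE of 0.35 and a 95% interval of 0.14 to 1.65, and *Cnn2* was not called. The difference rested on control replicate 2, since the log2 fold change fell to 0.42 without it and reached 1.25 without control replicate 1.

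Of the smooth muscle motor genes, *Myh11* was near the lower end of detection, while *Myl9* had 14 to 50 reads per library. The control level of *Myl9* per kb was at the percentile 67.0 of all tested genes. *Myl9* (ENSMUSG00000067818, chromosome 2, 156775420 to 156781658, plus strand) had a signal of 24, 37 and 25 in Sirt6mKO and of 34, 29 and 25 in controls, with means of 28.7 ± 7.23 and 29.3 ± 4.51 (SD, n = 3 each). The groups overlapped, and the log2 fold change of -0.05 had a 95% interval of -0.61 to 0.51. *Myh11* (ENSMUSG00000018830, chromosome 16, 14194535 to 14291372, minus strand) had a signal of 3, 15 and 9 in Sirt6mKO and of 11, 9 and 5 in controls, from 3 to 20 reads per library. Its log2 fold change of -0.06 had a 95% interval of -1.20 to 1.09, so a 2-fold difference in either direction is not excluded. Its coefficient of variation in Sirt6mKO was 66.7%, where counting alone would give 38.0%. For *Myl9*, by contrast, a 2-fold change lay outside the interval.

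**Figure D2:**
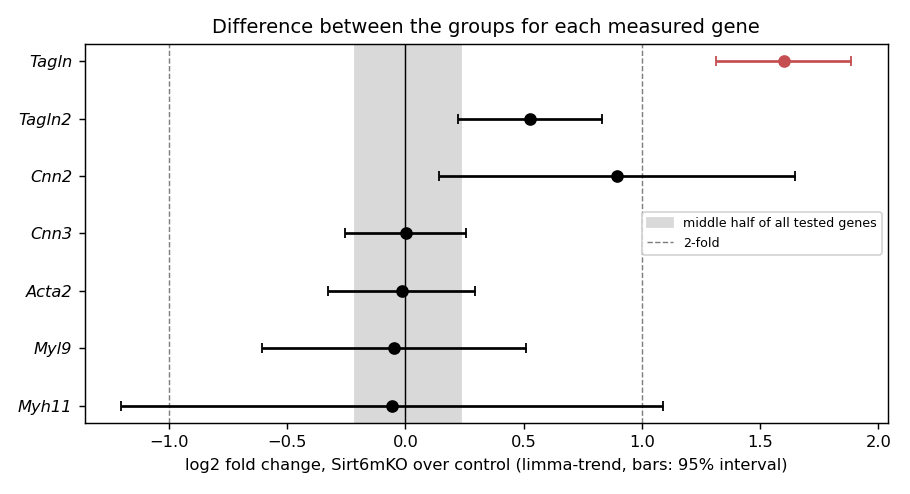
Log2 fold change of each measured gene between Sirt6mKO and control MuSCs (points, limma) with its 95% interval (bars); the grey band spans the middle 50% of all tested genes and dashed lines mark 2-fold. The interval of Tagln, 1.31 to 1.89, lies beyond 2-fold, that of Tagln2 ends at 0.83, and those of Cnn3, Acta2, Myl9 and Myh11 include 0.

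To compare levels between genes, the signal was divided by the length of the exons in kilobases. In controls the order was *Cnn3* with 568 ± 75.1, *Acta2* with 230 ± 33.9, *Tagln* with 122 ± 18.1, *Tagln2* with 113 ± 18.6, *Myl9* with 25.2 ± 3.88, *Cnn2* with 13.7 ± 7.16 and *Myh11* with 1.10 ± 0.40 signal per kb (SD, n = 3). In this order *Tagln* and *Tagln2* did not differ beyond their spread, and each other pair of neighbours was further apart than the larger SD. In Sirt6mKO, *Tagln* stood in the second place with 370 ± 37.8 signal per kb, behind *Cnn3* with 566 ± 26.3 and before *Acta2* with 228 ± 36.9 and *Tagln2* with 162 ± 15.4. *Myl9* with 24.7 ± 6.23 and *Cnn2* with 23.3 ± 3.29 could then no longer be ordered, and *Myh11* was again last with 1.18 ± 0.79. Among the 14227 tested genes, the control level of *Acta2* per kb was at the percentile 98.4, that of *Tagln* at 96.0 and that of *Myh11* at 2.54. In both groups the smooth muscle actin was thus abundant and the smooth muscle myosin heavy chain barely detected.

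As a share of the signal per kb summed over the 7 genes, *Tagln* made up 25.6, 26.6 and 28.4% in Sirt6mKO and 13.5, 9.21 and 11.6% in controls. The sum of the 6 other genes was 1048, 929 and 1037 in Sirt6mKO and 894, 1022 and 936 in controls, which overlapped. The share of *Cnn3* was 41.6, 42.3 and 39.7% against 52.0, 58.0 and 48.4%, although its signal did not separate the groups.

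**Figure D3:**
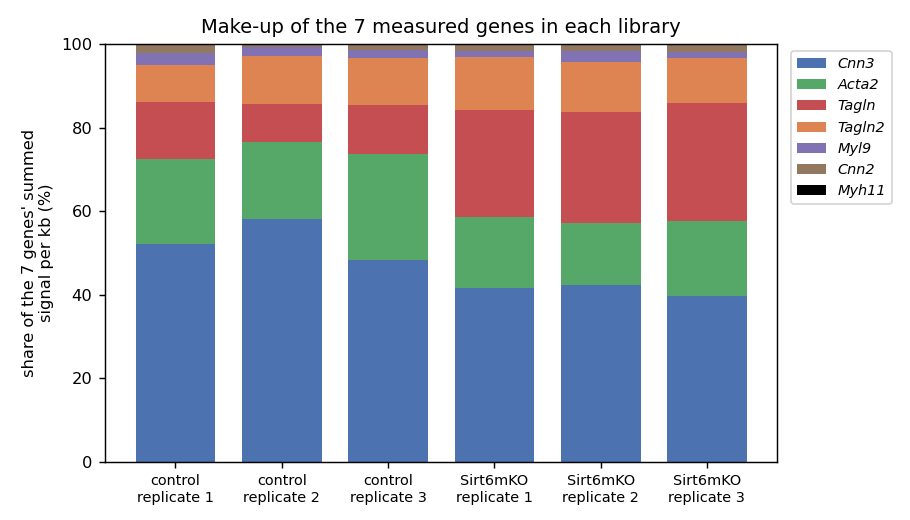
Share of each gene in the signal per kb summed over the 7 measured genes, in percent, for each of the 6 libraries (stacked bars). The share of Tagln (red) lies between 25.6 and 28.4% in the Sirt6mKO libraries and between 9.21 and 13.5% in the controls.

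The pattern of *Tagln* over the 6 libraries was compared with that of 7393 other genes averaging 50 or more, by the root mean square difference of the centred log2 values. The nearest were *4930518P08Rik* at 0.16, *Osbpl3* at 0.19, *Icosl* at 0.23, *Zfp518a* at 0.24 and *H2-D1* at 0.25. None of these 5 is in the lists of smooth muscle and actin genes used here. *Tagln2* stood at rank 415 with 0.61, *Acta2* at rank 3575 with 0.83 and *Cnn3* at rank 3718 with 0.83, which is as far as a flat gene would be, since *Tagln* itself deviated by 0.81. The nearest genes to *Tagln2* were *Lnpk*, *Magee1*, *Aprt*, *Ntf3* and *Phb2*. Those to *Acta2* were *Ube2w*, *C1galt1*, *Gpx1*, *Ncaph2* and *Psmc6*, and those to *Cnn3* were *Uqcrc1*, *Brms1l*, *Hnrnpk*, *Arpc4* and *Vps26b*. These are descriptions over 6 libraries that share the 2 groups.

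Of 28 measured factors other than the members, that is SRF, its cofactors, TEAD, KLF and other regulators of smooth muscle genes, 23 were tested, 0 were higher and 1, *Mamstr*, was lower by limma, which is 4.35% called beside 2.59% of all tested genes. Of the same 23 genes, 7 (30.4%) had an unadjusted p-value under 0.05, as had 18.1% of all tested genes, and their median log2 fold change was 0.03. *Mamstr*, a myocardin-related cofactor of MEF2 in skeletal muscle, had a signal of 67, 72 and 58 in Sirt6mKO and of 161, 180 and 122 in controls. It fell by 1.21 on the log2 scale (adjusted p = 0.0020, lower in 3 of 3 libraries). *Srf* had a signal of 141, 153 and 109 against 82, 98 and 102, with a log2 fold change of 0.50 that did not pass (adjusted p = 0.12), although the groups did not overlap. *Mrtfa* had 86, 87 and 62 against 84, 73 and 61, and *Mrtfb* had 254, 245 and 247 against 244, 270 and 219, both with overlapping groups. *Myocd*, the cofactor that defines smooth muscle, had 0, 0 and 2 against 0, 1 and 0. *Klf4*, known as a repressor of smooth muscle genes, had 243, 323 and 302 against 149, 154 and 169, with an adjusted p of 0.0035 for a log2 fold change of 0.87, which is short of 2-fold. The most abundant regulators per kb, *Wwtr1*, *Zeb1* and *Smad3*, had log2 fold changes of 0.19, 0.09 and -0.10.

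Of the other genes of the smooth muscle contractile apparatus, 23 were measured and 20 were tested. The median log2 fold change of the 20 was 0.46, beside 0.00 over all tested genes. Of the 20, 9 (45%) had an unadjusted p-value under 0.05 by limma, beside 18.1% of all tested genes. By the same rule 2 were higher and 0 lower, or 10% called beside 2.59% of all tested genes. The 2 were *Tns1*, the focal adhesion protein tensin 1, with a signal of 658, 655 and 638 in Sirt6mKO against 223, 153 and 100 in controls (log2 fold change 2.10, adjusted p = 2.0e-04), and *Tpm2*, beta-tropomyosin, with 220, 216 and 147 against 82, 72 and 59 (1.43, adjusted p = 0.0011). Both were higher in 3 of 3 libraries, and both were called in all 17 alternatives. *Tpm2* is also expressed in skeletal myofibers. *Tpm1* had 475, 523 and 291 against 244, 288 and 213, without overlap, with a log2 fold change of 0.755 short of 2-fold (adjusted p by limma 0.046). Among the most abundant of the list per kb, *Des*, the muscle intermediate filament desmin and also a MuSC gene, had 2483, 2026 and 2433 against 1516, 1794 and 1309, with a log2 fold change of 0.59 short of 2-fold (adjusted p = 0.026). *Flna*, an actin cross-linker, differed by 0.23 and *Ppp1r14a*, an inhibitor of myosin phosphatase, by 0.31, both without passing. The list spanned a wide range of levels. *Smtn*, smoothelin, had 184, 175 and 167 against 258, 187 and 161, *Itga8*, an integrin chain, had 255, 251 and 317 against 259, 179 and 151, and *Synpo2*, an actin-binding protein, had 285, 267 and 201 against 212, 201 and 140. These 3 genes were well detected, with overlapping groups, and were not called. *Actg2* had 2, 2 and 2 against 0, 1 and 2, and *Lmod1*, the smooth muscle leiomodin, had 1, 4 and 3 against 0, 1 and 0, both too low to be tested.

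Among the cytoskeletal targets of SRF and MRTF, 31 of 32 measured genes were tested, with a median log2 fold change of 0.10. Of these, 2 were higher, *Tpm2* and *Acta1*, and 0 lower, or 6.45% called beside 2.59% of all tested genes. An unadjusted p-value under 0.05 by limma was found for 9 of the 31 (29.0%), beside 18.1% of all tested genes. *Acta1*, skeletal muscle actin, had a signal of 548, 656 and 143 in Sirt6mKO against 118, 131 and 93 in controls (log2 fold change 1.71, adjusted p = 0.035). Sirt6mKO replicate 3 was close to the controls, and *Acta1* passed in 8 of 17 alternatives. Its call was lost without Sirt6mKO replicate 1 or 2 and without any of the controls, with log2 fold changes of 1.304 to 2.399 over the 6 libraries left out. Among the most abundant targets, *Actb*, cytoplasmic actin, had 3707, 3427 and 3606 against 3724, 4150 and 3454, *Itgb1*, an integrin chain, had 1707, 1661 and 1723 against 1661, 1888 and 1563, and *Filip1l* had 1908, 2151 and 1979 against 2347, 1595 and 1916, all with overlapping groups.

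Of the other actins and proteins with transgelin or calponin domains, 22 of 27 were tested, with 1 higher, *Acta1*, 0 lower and a median of 0.10. This is 4.55% called beside 2.59% of all tested genes. An unadjusted p-value under 0.05 by limma was found for 5 of the 22 (22.7%), beside 18.1% of all tested genes. The most abundant of the list per kb besides *Actb* were *Actg1*, the other cytoplasmic actin, and *Actn4*, an actin cross-linker, with log2 fold changes of -0.09 and 0.17. Of TGF-beta and contractile myofibroblast genes, 26 of 29 were tested, with 2 higher, *Col1a2* and *Col1a1*, both chains of type I collagen, 0 lower and a median of 0.10. This is 7.69% called, and 10 of the 26 (38.5%) had an unadjusted p-value under 0.05. *Col3a1*, the most abundant of this list, had a log2 fold change of 0.06, with 7236, 6685 and 8461 against 8595, 7237 and 5795, and *Tgfbr3* and *Ltbp1* followed with log2 fold changes of -0.14 and 0.11. Over the 5 lists together, 5 of 108 tested genes were higher and 1 lower, or 5.56% called and 4.63% higher, beside 2.59% and 1.57% of all tested genes.

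**Figure D4:**
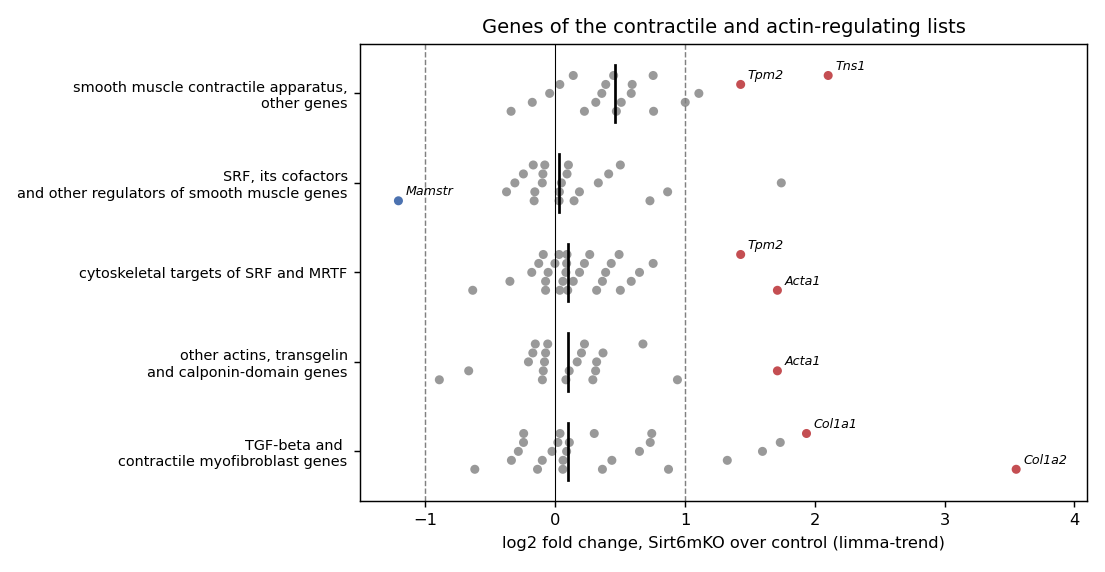
Log2 fold change between Sirt6mKO and control MuSCs of each tested gene (points) in 5 lists without the members, with called genes named, red when higher and blue when lower, and a black bar at each list's median. The median of the other contractile genes is 0.46, those of the other lists lie between 0.03 and 0.10, and Mamstr is the only called gene that is lower.

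Because *Tagln* marks other cells of muscle, markers of those cells were set beside it. In bulk samples, more cells of a type and more RNA per cell cannot be told apart. Of the mural cell markers, 8 of 12 measured genes were tested, with a median log2 fold change of 0.22. Of the 8, 4 (50%) had an unadjusted p-value under 0.05 by limma, beside 18.1% of all tested genes. Called were 12.5%, beside 2.59% of all tested genes, with 0 lower and 1, *Rgs4*, higher (log2 fold change 1.15). This call was lost without Sirt6mKO replicate 1 (1.03), Sirt6mKO replicate 3 (1.07) or control replicate 3 (0.87). *Notch3*, which MuSCs also express, made up most of their summed signal, which was 4433 to 5499 in Sirt6mKO and 2588 to 3990 in controls. The pericyte gene *Rgs5* had a signal of 21, 48 and 30 against 9, 31 and 34, and *Pdgfrb* had 11, 28 and 12 against 11, 20 and 14. *Mcam* had 57, 51 and 66 against 93, 149 and 111, which was lower in each Sirt6mKO library but by less than 2-fold in the fit (log2 fold change -0.99). *Abcc9* had 9, 22 and 18 against 46, 32 and 27, also lower in each Sirt6mKO library. Its log2 fold change of -1.10 was not called (adjusted p by limma 0.098). Of the smooth muscle genes, *Myocd* was at 0 to 2, *Actg2* at 0 to 2 and *Myh11* at 3 to 15, whereas *Acta2* was at 410 to 590 over the 6 libraries. The part of smooth muscle or pericyte RNA in the *Tagln* signal was not tested.

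Of 15 measured fibroblast markers, 11 were tested, 4 were higher in Sirt6mKO (*Clec3b*, *Col1a2*, *Pdgfra* and *Col1a1*) and 0 lower, or 36.4% called beside 2.59% of all tested genes. Of the 11, 9 (81.8%) had an unadjusted p-value under 0.05 by limma, beside 18.1% of all tested genes. The tested markers had a median log2 fold change of 1.84. Their summed signal was 12953 to 14852 in Sirt6mKO and 8883 to 13403 in controls. *Col1a2* had 782, 1299 and 1162 against 173, 63 and 65 (log2 fold change 3.55, called in 17 of 17 alternatives) and *Clec3b* had 109, 22 and 78 against 1, 0 and 0. *Pdgfra* had 14, 22 and 38 against 9, 4 and 2 (2.16, called in 9 of 16). *Col1a1* had 420, 1063 and 645 against 487, 128 and 81 (1.94) and passed in 8 of 17 alternatives. The calls of *Pdgfra* and *Col1a1* were lost on leaving out any 1 library other than control replicate 1, while the log2 fold changes stayed at 1.75 to 2.62 and at 1.398 to 2.685. The order of the Sirt6mKO replicates differed among the markers. *Pdgfra*, *Col3a1* and *Dpt* were highest in replicate 3, *Clec3b* in replicate 1, and *Col1a2* and *Col1a1* in replicate 2. The part of fibroblast RNA in the *Tagln* signal was not tested.

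Of 20 measured myofiber markers, 19 were tested, 3 were higher (*Myoz1*, *Mylpf* and *Acta1*) and 0 lower, or 15.8% called beside 2.59% of all tested genes. The median log2 fold change of the 19 was 0.90. An unadjusted p-value under 0.05 by limma was found for 15 of them (79%), beside 18.1% of all tested genes. The summed signal of the markers was 2906 to 5201 in Sirt6mKO and 2356 to 2383 in controls. The 3 called genes were high in Sirt6mKO replicates 1 and 2 and lower in replicate 3, though still above every control there. *Ttn* had 819, 917 and 657 against 451, 321 and 518, and *Neb* had 475, 544 and 373 against 298, 168 and 301. Both were short of 2-fold (log2 fold changes 0.90 and 0.89, adjusted p by limma 0.010 and 0.031). Of the 19 tested markers, 9 lay above all controls in every Sirt6mKO library and 1, *Pygm*, below. Without Sirt6mKO replicate 1, or without replicate 2, none of the 3 called genes passed, with log2 fold changes of 1.304 to 2.42. *Mylpf* was also lost without control replicate 2 (1.99). The part of myofiber RNA in the *Tagln* signal was not tested. Immediate early genes, which sorting and dissociation can induce, had 2 of 21 tested genes higher (*Egr2* and *Ier3*) and 0 lower, or 9.52% called beside 2.59% of all tested genes. Of the 21, 17 (81%) had an unadjusted p-value under 0.05 by limma, beside 18.1% of all, and 11 had every Sirt6mKO library above every control. The median log2 fold change was 0.66, with a summed signal of 29476 to 32545 against 18080 to 24488. *Jun*, *Junb* and *Fos* differed by 0.80, 0.85 and 0.75, short of 2-fold (adjusted p by limma 0.0047, 0.0018 and 0.0081), while *Fosl2* and *Myc* had -0.19 and -0.26. On leaving out 1 library, *Egr2* passed only without control replicate 2, and *Ier3* only without control replicate 1 or 3, while the log2 fold changes stayed at 0.83 to 1.39 and at 0.85 to 1.17. The part of dissociation in the *Tagln* signal was not tested. Of 8 tested tenocyte markers, 0 were called, but 4 had an unadjusted p-value under 0.05 and their median log2 fold change was 2.04. *Thbs4* had 14, 508 and 191 against 15, 16 and 7 (log2 fold change 3.13), *Fmod* had 11, 481 and 163 against 11, 17 and 7 (3.03) and *Tnmd* had 1, 19 and 13 against 1, 0 and 0 (2.71). *Mkx* went the other way, with 1, 10 and 6 against 6, 15 and 13 (-1.12). *Chodl*, which is also among the MuSC markers, had 2757, 2759 and 2579 against 2949, 3076 and 2994 (-0.16). *Thbs4*, *Fmod* and *Tnmd* were high in Sirt6mKO replicates 2 and 3 and at the level of the controls in replicate 1. *Scx* lay above every control in each Sirt6mKO library, with 33, 27 and 24 against 16, 23 and 23 (0.43). The part of tenocyte RNA in the *Tagln* signal was not tested. By limma, 0 of the tested markers of endothelial cells (4), immune cells (2) and Schwann cells (5) were called, with 1, 0 and 1 at an unadjusted p-value under 0.05 and medians of 0.39, -0.28 and -0.26. *Pecam1*, of endothelial cells, had 22, 27 and 24 against 11, 4 and 29, and *Ptprc*, the gene of CD45, is not analysed here. Among 11 tested genes of differentiating myoblasts, 0 were called, with a median log2 fold change of 0.08. Of the 11, 5 (45.5%) had an unadjusted p-value under 0.05 by limma, in both directions. *Myog* had 22, 58 and 139 against 137, 107 and 208 (log2 fold change -1.35), and *Mymk* had -1.21. *Mef2c*, *Myl1* and *Tnnt1* went the other way, with 1.74, 1.46 and 0.50.

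MuSC markers were abundant in both groups. The summed signal of 20 MuSC markers was 24838 to 27255 in Sirt6mKO and 24054 to 27923 in controls. Of the 20, 0 were higher and 1, *Chrdl2*, was lower, or 5% called beside 2.59% of all tested genes. Its log2 fold change was -1.10, and -0.92 without Sirt6mKO replicate 3, which is short of 2-fold. Of the 20, 9 (45%) had an unadjusted p-value under 0.05 by limma, beside 18.1% of all tested genes. In every Sirt6mKO library 3 markers lay above all controls and 5 below. The 3 were *Cd34*, *Notch3* and *Des*, with log2 fold changes of 0.60, 0.61 and 0.59. *Pax7*, the defining transcription factor, had 1841, 2307 and 1810 in Sirt6mKO against 4066, 3449 and 3150 in controls, a log2 fold change of -0.84 with an adjusted p of 0.0041, short of 2-fold. *Sirt6* itself had a signal of 19, 20 and 13 against 18, 17 and 20. These values over the whole gene do not check the labels, since only exons 4 to 6 are removed.

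**Figure D5:**
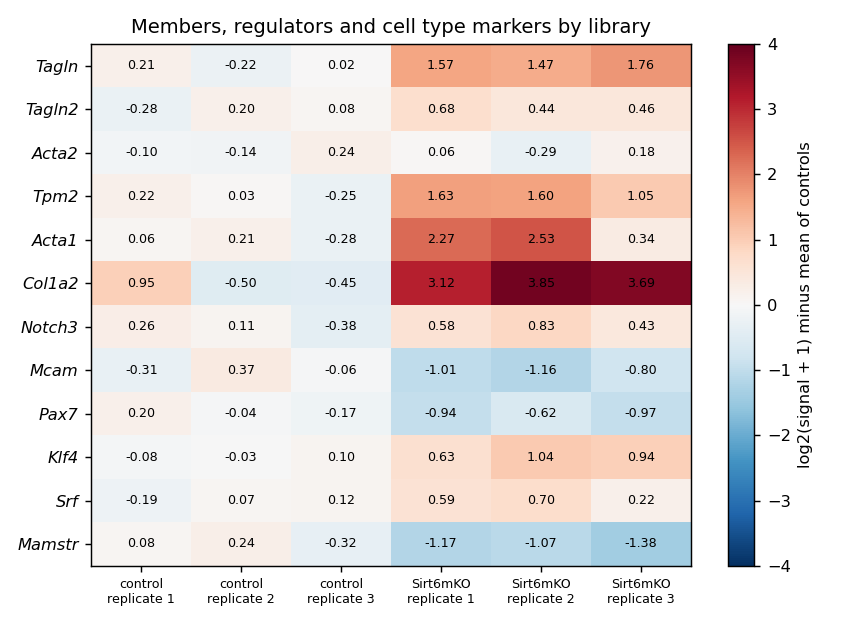
Log2(signal + 1) of 12 genes in each of the 6 libraries, minus the mean of the 3 controls, as numbers and colours. Tagln is at 1.57, 1.47 and 1.76 in the Sirt6mKO libraries, Acta2 at 0.06, -0.29 and 0.18, and the myofiber gene Acta1 drops to 0.34 in replicate 3.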

How the data were processed

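RNA-seq libraries of 3 Sirt6mKO and 3 control MuSC samples were used, grouped by their labels. According to the methods and the submitters' processing notes, which name Trimmomatic 0.39, STAR 2.7.10a, Picard 2.25.5, featureCounts 2.0.2 and DESeq2 1.30.1, the authors aligned reads to GRCm38, assigned them to genes and left out reads on several genes. The labels and the methods name different library kits. The values deposited by the authors are whole numbers of signal per gene, that is reads over a size factor, rounded. From the steps between low values, 1 read stands for a signal of 0.729 to 1.79, and intervals from counting cover counting error only. The number of other columns of samples left unused was 0.

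Differences were tested on log2(signal + 1) over the 14227 genes whose signal averaged 5 or more. The two-sided moderated test with a trend on intensity of limma 3.58.1 (R 4.3.3) was used, with Benjamini-Hochberg adjustment over all of them. A gene was called when its adjusted p did not exceed 0.05 and its level differed 2-fold or more. Fold changes are on the log2(signal + 1) scale, which understates those of low genes. The test was also run on simulated data with known changes. A test on counts was planned only for raw counts and was not run. Gene positions are from GENCODE M21, in which 99.7% of the identifiers were found, and promoters from RefSeq (GRCm38.p6), in which 6 of the 8 members matched by symbol. Proteins were translated from the longest reading frames of the reference transcripts. The members and lists were chosen with earlier results of these data known, and 1 planned list is not reported here. Named were all members and *Tagln3*, the called genes and the 3 most abundant per kb of each list, SRF and its main cofactors, *Klf4*, a few defining markers and called markers, and the 5 genes nearest to each abundant member. *Gm48529* and *Pcsk7*, which overlap *Tagln*, and *Lmod1*, *Actg2*, *Smtn*, *Itga8*, *Synpo2*, *Thbs4*, *Fmod*, *Tnmd*, *Gm42928*, *Gm4815*, *Gm17936* and *Sirt6* were added after their values were seen. The same holds for *Tpm1*, *Abcc9*, *Ttn*, *Neb*, *Pygm*, *Jun*, *Junb*, *Fos*, *Fosl2*, *Myc*, *Mkx* and *Chodl*. It also holds for *Mymk*, *Mef2c*, *Myl1*, *Tnnt1*, *Cd34*, *Scx* and *Dpt*. Alternatives were other scalings, filters, pseudocounts and fits, the replicate number as a block, and each library left out.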

Additional observations from a re-analysis of the deposited data

How the results depend on the processing

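*Tagln* was called, and 1 member in all, in each of the 17 alternatives. No called gene that is named here changed direction in any alternative run for it, while no other member was called in any. *Acta2*, *Cnn3*, *Myh11* and *Myl9*, which were not called, took either sign when single libraries were left out. Over all genes, 223 were higher and 145 lower. With a mean of at least 50, 76 were higher and 52 lower, and by adjusted p alone 376 and 267. Leaving out 1 library gave 88 (without Sirt6mKO replicate 2) to 294 (without control replicate 1) higher and 81 (without Sirt6mKO replicate 1) to 151 lower, with 92 higher without Sirt6mKO replicate 1, and 91 and 89 lower without Sirt6mKO replicate 2 and control replicate 2. Fewer libraries enter these fits. Over the 5 lists, 5 genes were higher and 1 lower. The count of higher genes was 3 with no filter, with a mean of at least 50 and with robust empirical Bayes, 11 by adjusted p alone, and 3 to 6 on leaving out 1 library. That of lower genes was 5 by adjusted p alone and 1 on leaving out any library. The causes were not tested. With the replicate block, 268 genes were higher and 167 lower, with 1 member, 5 list genes higher and 1 lower. The correlations of same-numbered samples were 0.0235, 0.0663 and 0.188, not every sample correlated best with its own number, and the numbers are therefore not taken to pair the samples. The alternative scalings moved the median log2 fold change of all genes by at most 0.02. *Tagln2*, with a log2 fold change of 0.53, was under the adjusted p threshold in 2 of 17 alternatives and reached 2-fold in none. *Myh11* and *Tagln3* had few reads, 3 to 20 and 1 to 8 per library. The test for counts was not run, because the values are not raw counts.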
